A study of Mus musculus with 6 samples.

Results

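The genes described here are those of the machinery that takes a mammalian cell out of G1: the D-type cyclin genes Ccnd1, Ccnd2 and Ccnd3, the E-type cyclin genes Ccne1 and Ccne2, the kinase genes Cdk4 and Cdk6, and the inhibitor genes Cdkn1a, Cdkn1b and Cdkn1c. These 10 genes were chosen by name, by no measured value, with earlier results of these data known, out of 22180 genes that an array probe set named alone. A probe set naming 1 gene existed for 9 of the 10. The probe set of Ccne2 also named Ints8, so no value is given for Ccne2.

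In G1, D-type cyclins bind CDK4 or CDK6 and E-type cyclins bind CDK2, and these kinases phosphorylate the retinoblastoma protein, which frees E2F transcription factors. The proteins p21 (Cdkn1a), p27 (Cdkn1b) and p57 (Cdkn1c) bind cyclin-CDK complexes and restrain the E-type ones. In granulosa cells, the lineage that gives rise to cumulus cells, cyclin D2 is the D-type cyclin induced by follicle-stimulating hormone, and mouse females without Ccnd2 have granulosa cells that fail to proliferate in response to it. MTOR kinase promotes growth and entry into S phase, in part through translation of cyclin D mRNA, which these arrays do not measure.

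The samples were cumulus-oocyte complexes, in which an immature oocyte is enclosed by somatic cumulus cells, taken from large antral follicles of wildtype mice. Priming of the females with equine chorionic gonadotropin (5 IU) lasted 46 h. Their age is given as 21 days in the growth protocol and 23 days in the sample characteristics, and the strain is not given in the sources used here. Complexes were cultured, 100 per group, with Torin1 at 5 µM, which blocks the ATP site of MTOR, in 3 samples, or with the DMSO vehicle in 3 samples. The source label gives 14 h of culture and the protocol 16 h. All samples had 3 mg/ml of bovine serum albumin and 5 µM milrinone, a PDE3 inhibitor that holds the oocyte in meiotic arrest. The oocyte and its cumulus cells were lysed together, so a value is the sum over both, and fewer cells of a type cannot be told apart from less RNA per cell. Whether the samples are of different animals or cultures is not stated, and the p-values therefore reflect a spread that could be technical only.

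Values are log2(intensity + 1) of 1 probe set per gene, and a change is the mean of the Torin1 arrays minus that of the DMSO arrays, with its standard error (SE). A gene was called at a two-sided limma p below 0.05 after Benjamini-Hochberg adjustment over all 22180 genes, and every adjusted p below is of that kind. Because probes differ in brightness per transcript, the level of one gene was not set against that of another. Array medians ran from 11.1 to 11.97 intensity units. Torin1 sample 3 stood apart over all genes: its log2 differences from Torin1 samples 1 and 2 had SDs of 0.327 and 0.35, against 0.204 between samples 1 and 2 and 0.212 to 0.24 among DMSO samples. The labels give it the same short name as sample 2.

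Of the 9 measured genes, Cdkn1a rose, Cdk4 and Cdk6 fell, and 6 were not called. The called share was 33.3% (3 of 9), where 12.1% of all genes were called. By direction it was 11.1% for rises beside 5.13% of all genes, and 22.2% for falls beside 6.94%. Values of the groups did not overlap for 6 of 9 genes (66.7%), where this held for 28.6% of all genes. The median change was -0.28, with 7 of 9 below 0, against a median of 0.01 over all genes, of which 47.2% lay below 0. With so few members these shares are given as a description. The shares over all genes include dim genes, whereas 8 of the 9 members were brighter than the median gene. With dim genes left out, 2740 genes were called in a fit of Ccnd2 and 11089 other genes, a larger share than 12.1%. Most genes of the pathway lists below were also brighter than the median gene, so 12.1% is a low yardstick for them. The falls numbered 3 without Torin1 3, where Ccnd2 was called too, and 1 without Torin1 1, Torin1 2, DMSO 1 or DMSO 2, where Cdk4 was not called.

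**Figure D1:**
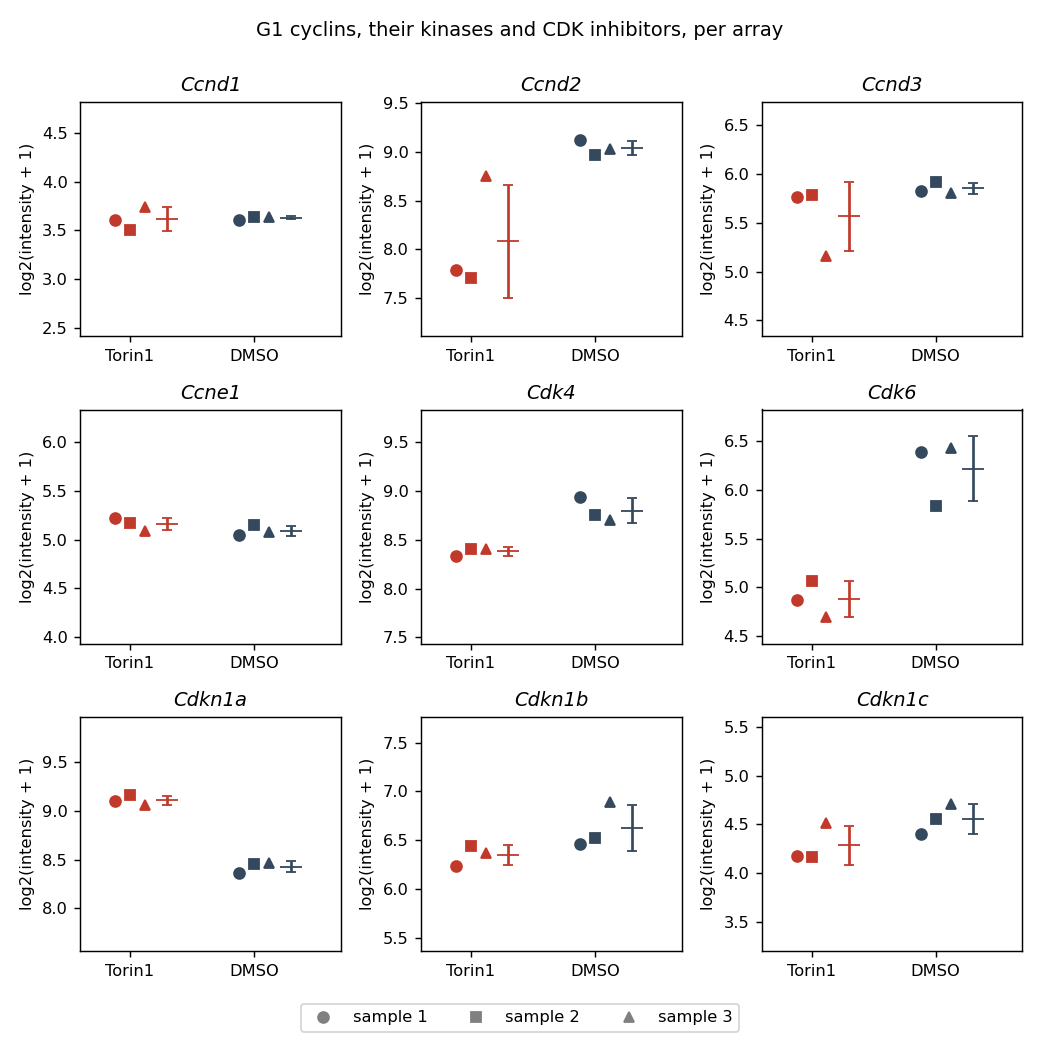
Level of each measured gene on every array, as log2(intensity + 1), with Torin1 at the left and DMSO at the right of each panel; symbols mark the sample number, and the bar shows the mean ± SD (n = 3 each). Each panel spans the same height on the log2 scale. Cdkn1a, Cdk4 and Cdk6 are separated by group, as are Ccnd2, Ccnd3 and Cdkn1b, which were not called. Ccnd2 in Torin1 sample 3, at 8.75, lies between the other Torin1 samples and the DMSO samples.

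Among the cyclins, Ccnd2 gave the widest spread within the Torin1 group. It read 7.79, 7.71 and 8.75 in Torin1 samples 1, 2 and 3, against 9.12, 8.97 and 9.03 in DMSO samples 1, 2 and 3. All 3 Torin1 values were below all DMSO values, but sample 3 was only 0.29 below the DMSO mean, while samples 1 and 2 were 1.25 and 1.33 below it. The means were 8.08 ± 0.58 with Torin1 and 9.04 ± 0.08 with DMSO (SD, n = 3 each), a change of -0.96 ± 0.26 (SE; 95% interval -1.58 to -0.34) or 0.515-fold. It was not called (adjusted p = 0.0604). Without Torin1 3 the change was -1.29 ± 0.09 and it was called (limma adjusted p = 0.000257), whereas it was not called without any 1 of the other 5 arrays (adjusted p = 0.136 to 0.168, changes of -0.99 to -0.77). Ccnd2 was also called with quantile normalization between arrays (adjusted p = 0.0459), with arrays weighted by their quality (adjusted p = 0.00694), with dim genes left out (adjusted p = 0.0329) and with Torin1 samples 2 and 3 averaged as 1 sample (adjusted p = 0.00454). The weighting gave Torin1 3 the lowest weight (0.436). The averaging took the difference between Torin1 samples 2 and 3 out of the spread, with an SE of 0.14. These 2 calls are thus not independent of the deviation of sample 3.

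The gap between Torin1 sample 3 and the mean of samples 1 and 2 was 1.00 for Ccnd2, and 98.2% of all genes had a smaller gap. In Ccnd3, the D-type cyclin gene also widely used in haematopoietic cells, sample 3 deviated the other way. Ccnd3 read 5.76, 5.78 and 5.16 in Torin1 samples, against 5.83, 5.92 and 5.81 in DMSO samples. Torin1 samples 1 and 2 were thus within 0.10 of the DMSO mean and sample 3 was 0.69 below it, a gap of -0.61 that exceeded those of 94.2% of genes. The change was -0.29 ± 0.17 (95% interval -0.68 to 0.11; adjusted p = 0.377), and -0.09 ± 0.08 without Torin1 3 (limma adjusted p = 0.626).

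Ccnd1, the D-type cyclin gene induced by many growth factors, was dim, at a mean below the median gene (4.17). It read 3.61, 3.50 and 3.74 with Torin1 and 3.61, 3.64 and 3.64 with DMSO. These values overlapped, and the change was -0.01 ± 0.08 (95% interval -0.21 to 0.19; adjusted p = 0.969). Background was not measured here, and its part in so dim a reading was not tested.

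Ccne1, whose product activates CDK2 late in G1, read 5.22, 5.17 and 5.09 with Torin1 and 5.05, 5.15 and 5.08 with DMSO. The groups overlapped, with a change of 0.07 ± 0.07 (95% interval -0.11 to 0.24; adjusted p = 0.708). The interval leaves room for a fold between 0.929 and 1.18.

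**Figure D2:**
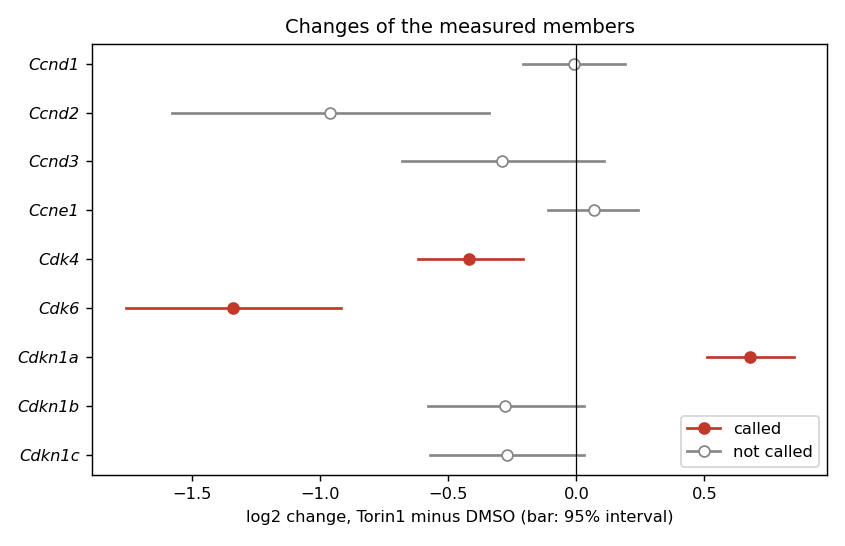
Change of each measured gene in log2 units, Torin1 minus DMSO, with its 95% interval from limma; filled points were called and open points were not. The intervals of Ccnd2 (-1.58 to -0.34), Cdk4, Cdk6 and Cdkn1a do not reach 0, and Ccnd2 is nevertheless not called after adjustment over all genes.

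Both kinase genes fell. Cdk6 read 4.87, 5.07 and 4.70 in Torin1 samples, against 6.39, 5.83 and 6.43 in DMSO samples. DMSO sample 2 was the lowest of its group and still lay above every Torin1 value. The means were 4.88 ± 0.19 with Torin1 and 6.22 ± 0.33 with DMSO (SD, n = 3 each). Cdk6 thus fell by 1.34 ± 0.18 on the log2 scale (SE), to 0.395-fold (95% interval 0.295 to 0.529; adjusted p = 0.00415), and 97.8% of all genes had a smaller absolute change. It was called under all 16 alternatives, with leave-one-out changes from -1.53 to -1.23 and adjusted p up to 0.0207 among these.

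Cdk4 read 8.33, 8.41 and 8.41 in Torin1 samples, against 8.94, 8.75 and 8.70 in DMSO samples. The groups did not overlap, and the Torin1 values lay within 0.08 of each other. The means were 8.38 ± 0.05 with Torin1 and 8.80 ± 0.12 with DMSO (SD, n = 3 each), and Cdk4 fell by 0.42 ± 0.09 (SE), to 0.75-fold (95% interval 0.651 to 0.864; adjusted p = 0.0234). The size of this fall hardly moved when an array was left out (-0.46 to -0.35), but the call was lost without Torin1 1 (limma adjusted p = 0.0797), Torin1 2 (0.0592), DMSO 1 (0.0681) or DMSO 2 (0.0605). Cdk4 and Cdk6 bind the same D-type cyclins. Whether their changes differ from each other was not tested.

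Promoter windows, 250 bases before to 50 after an annotated start, were in the RefSeq table (build GRCm38.p6) for 6 of the 10 genes. Those of Cdk4 and Cdk6 are printed because both genes fell. Capitals mark the E-box CACGTG, a motif bound by MYC and by TFEB and TFE3, which reads the same on both strands. The Cdk4 window is chr10:127063285-127063584 and the Cdk6 window chr5:3343643-3343942, both on the + strand.
Cdk4: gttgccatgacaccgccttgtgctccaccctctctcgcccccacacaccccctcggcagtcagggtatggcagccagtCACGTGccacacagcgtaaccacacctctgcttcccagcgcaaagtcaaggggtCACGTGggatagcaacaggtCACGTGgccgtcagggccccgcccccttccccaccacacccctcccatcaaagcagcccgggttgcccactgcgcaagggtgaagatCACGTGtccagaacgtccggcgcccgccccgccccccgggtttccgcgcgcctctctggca
Cdk6: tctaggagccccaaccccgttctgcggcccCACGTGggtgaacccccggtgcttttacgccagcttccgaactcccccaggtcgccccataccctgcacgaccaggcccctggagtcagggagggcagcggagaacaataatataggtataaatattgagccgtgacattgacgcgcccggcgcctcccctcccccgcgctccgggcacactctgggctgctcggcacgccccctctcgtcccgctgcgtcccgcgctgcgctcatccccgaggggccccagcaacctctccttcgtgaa
The Cdk4 window holds 4 E-boxes, starting at bases 79, 133, 153 and 240 of the window, and the Cdk6 window holds 1, at base 31. Of 32851 windows in the table, 7.15% hold at least 1 and 8 windows hold at least 4. The other windows of these genes (Ccnd3, Ccne1, Cdkn1a and Cdkn1b) hold 0. Genes without a window, Ccnd2 among them, could not be searched. The search was added after the values were seen, so the contrast between these windows is no test. A match of letters is a description and does not show that a factor binds there. Myc itself read 6.07, 5.76 and 7.82 with Torin1 and 8.04, 7.63 and 7.52 with DMSO, so the groups overlapped through Torin1 sample 3 (change -1.18 ± 0.50, adjusted p = 0.21). A link between Myc and the falls of Cdk4 and Cdk6 was not tested.

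Of the inhibitors, Cdkn1a (p21) rose. It read 9.10, 9.16 and 9.06 in Torin1 samples, against 8.36, 8.45 and 8.47 in DMSO samples. Within each group the values lay within 0.10 of each other, and all Torin1 values were above all DMSO values. The means were 9.11 ± 0.05 with Torin1 and 8.43 ± 0.06 with DMSO (SD, n = 3 each). The change was 0.68 ± 0.07 (SE), or 1.60-fold (95% interval 1.42 to 1.81; adjusted p = 0.00168). It was called under all 16 alternatives and stayed between 0.65 and 0.71 with any 1 array left out.

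Cdkn1b (p27), an inhibitor gene that FOXO factors are known to induce, read 6.23, 6.44 and 6.37 with Torin1 and 6.46, 6.52 and 6.89 with DMSO. Torin1 values were all below DMSO values, though sample 2 with Torin1 and sample 1 with DMSO nearly met. The change was -0.28 ± 0.13 (95% interval -0.58 to 0.03) and was not called (adjusted p = 0.256). Without DMSO 3, the highest array, it was -0.14 ± 0.10 (limma adjusted p = 0.548).

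Cdkn1c (p57), an imprinted gene, read 4.18, 4.16 and 4.51 with Torin1 and 4.40, 4.55 and 4.71 with DMSO. Torin1 sample 3 overlapped the DMSO group. The change was -0.27 ± 0.13 (95% interval -0.57 to 0.03) and was not called (adjusted p = 0.265). It was -0.38 ± 0.11 without Torin1 3 (limma adjusted p = 0.0695). The difference in response between Cdkn1a and the other inhibitors was not tested.

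**Figure D3:**
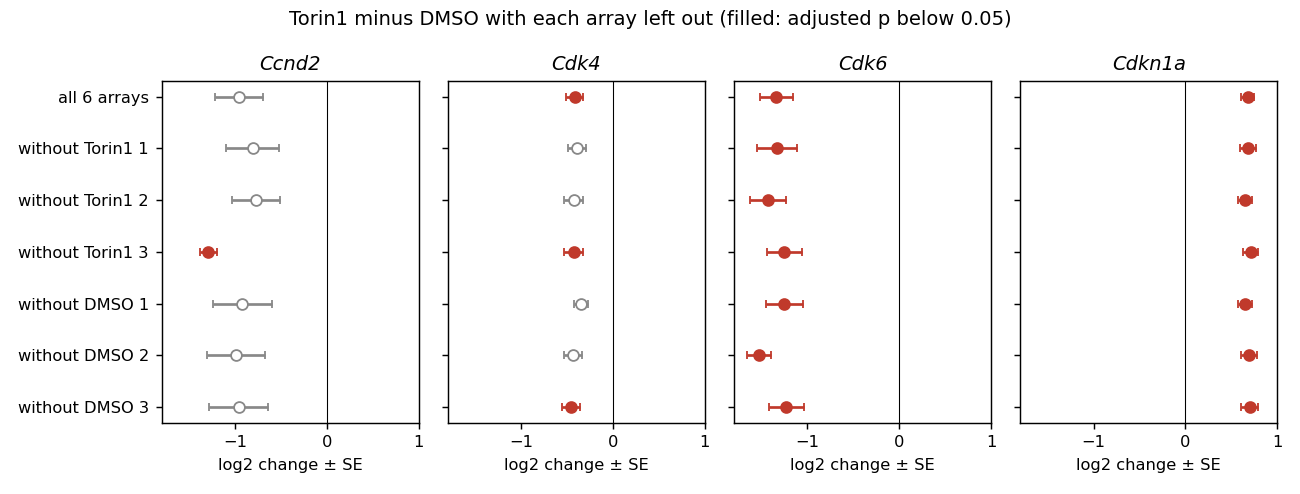
Change of Ccnd2, Cdk4, Cdk6 and Cdkn1a (log2, Torin1 minus DMSO, ± SE) with all 6 arrays and with each array left out in turn; filled points had an adjusted p below 0.05. Cdk6 and Cdkn1a are filled throughout, Cdk4 loses its call in 4 of 6 leave-outs, and Ccnd2 is filled only without Torin1 3, at -1.29.

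The Cdkn1a gene has windows for a pair of annotated starts, and both are printed because it is the member that rose. The upstream one is chr17:29090729-29091028 and the downstream one chr17:29093519-29093818, on the + strand of GRCm38.p6. Capitals mark a p53 site, sought on both strands as a pair of p53 decamers with no gap, where 1 of the 20 bases may depart from the pattern outside the C and G of each core.
Cdkn1a, upstream start: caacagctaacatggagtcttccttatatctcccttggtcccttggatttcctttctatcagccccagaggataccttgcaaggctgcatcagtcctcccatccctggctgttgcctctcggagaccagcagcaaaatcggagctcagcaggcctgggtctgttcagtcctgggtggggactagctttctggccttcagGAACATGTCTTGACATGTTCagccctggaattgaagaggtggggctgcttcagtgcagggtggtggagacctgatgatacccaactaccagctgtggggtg
Cdkn1a, downstream start: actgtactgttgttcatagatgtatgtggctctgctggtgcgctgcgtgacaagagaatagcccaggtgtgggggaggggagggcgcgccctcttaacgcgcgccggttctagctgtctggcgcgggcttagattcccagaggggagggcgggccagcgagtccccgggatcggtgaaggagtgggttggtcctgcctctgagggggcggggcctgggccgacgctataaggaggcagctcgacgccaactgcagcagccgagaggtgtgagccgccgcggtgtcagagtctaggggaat
The upstream window holds 1 such site, starting at base 200, and the downstream window holds 0. The site uses the allowed departure, at the T that opens its downstream decamer, so it is not a full match. Over all genes 22 of 32851 windows (0.067%) hold one by the same rule. The search was added after the values were seen, so this share is a description only. The array value is 1 per gene and does not tell the starts apart.

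Genes of p53 signalling moved both ways beside Cdkn1a. Of 14 measured genes 3 rose, 2 fell and 9 were not called (35.7% called, beside 12.1% of all genes), with a median of 0.15. Plk3, a stress-responsive kinase gene, rose by 1.26 ± 0.11 (adjusted p = 0.000807). Btg2, an antiproliferative p53 target, read 7.29, 7.18 and 8.94 with Torin1 and 5.67, 5.79 and 6.10 with DMSO. Its rise of 1.95 ± 0.45 (adjusted p = 0.0321) lost its call without any 1 of the DMSO arrays (adjusted p up to 0.107). Mdm2, which encodes the ubiquitin ligase of p53, rose by 0.38 ± 0.10 (adjusted p = 0.0474) and lost its call in each of the 6 leave-outs (adjusted p up to 0.132). Ccng1, a cyclin G gene and classical p53 target, fell by 1.61 ± 0.18 (adjusted p = 0.00201), and Sesn1 fell by 0.82 ± 0.14 (adjusted p = 0.0104). Sesn1 was dim, with means of 3.22 with Torin1 and 4.04 with DMSO, below the median gene (4.17). The part of background in its values was not tested. Trp53 itself had no probe set naming it alone.

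The partners and targets of the G1 cyclins include CDK2, the RB family and the E2F factors. Of 18 such genes measured, 0 rose and 1 fell (5.56% called, beside 12.1% of all genes; 2 called with a pseudocount of 16), with 4 higher and 3 lower at an unadjusted limma p below 0.05 and a median of -0.03. The gene that fell was E2f6, which encodes a repressive E2F. It read 4.25, 4.34 and 4.26 with Torin1 and 6.43, 5.27 and 5.75 with DMSO, a change of -1.53 ± 0.26 (adjusted p = 0.0108). The kinase gene Cdk2 changed by -0.33 ± 0.15 (adjusted p = 0.241) and Rb1, the retinoblastoma gene, by 0.23 ± 0.09 (adjusted p = 0.203); neither was called.

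None of the 4 INK4 inhibitor genes, whose products bind CDK4 and CDK6 directly, was called in limma, and 0 passed an unadjusted p below 0.05. Their changes were 0.17 ± 0.12 for Cdkn2a, -0.31 ± 0.14 for Cdkn2b, -0.38 ± 0.18 for Cdkn2c and 0.43 ± 0.27 for Cdkn2d. Cdkn2d read 5.49, 5.60 and 4.52 with Torin1 and 4.69, 4.72 and 4.91 with DMSO, so that samples 1 and 2 lay above and sample 3 below the DMSO values. Without Torin1 3, 1 of the 4 genes was called. The 3 genes of the CDK-activating kinase (Cdk7, Ccnh and Mnat1) were not called either, with 0 higher and 1 lower at an unadjusted limma p below 0.05.

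Among genes for turnover of G1 cyclins and p27, 3 of 13 measured genes rose and 0 fell (23.1% called, beside 12.1% of all genes; median 0.10; 5 higher and 1 lower at an unadjusted limma p below 0.05). These 13 were all brighter than the median gene, and the called share among such genes was above 12.1%. Fbxo31, an F-box protein gene, known for targeting cyclin D1 after DNA damage, read 7.95, 8.10 and 7.02 with Torin1 and 6.57, 6.39 and 6.57 with DMSO (change 1.18 ± 0.26, adjusted p = 0.0304). Torin1 sample 3 was again the one nearest the DMSO samples. Fbxw7, which targets cyclin E, rose by 0.54 ± 0.10 (adjusted p = 0.0159) and Fbxo4 by 0.59 ± 0.10 (adjusted p = 0.0108). Fbxo31 was called in a single leave-out, that of Torin1 3 (otherwise adjusted p up to 0.102), Fbxw7 lost it without DMSO 2 or DMSO 3 (up to 0.0698) and Fbxo4 without DMSO 3 (0.0513). Skp2, another F-box protein gene, whose product targets p27, was at -0.41 ± 0.17 and was not called (adjusted p = 0.209).

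Among 19 measured markers of S phase and mitosis 1 rose and 3 fell (21.1% called, beside 12.1% of all genes; median -0.08). All 19 were brighter than the median gene, and among such genes the called share was larger than 12.1%. Pcna, the sliding clamp of DNA polymerase and also a p53 target, rose by 0.63 ± 0.09 (adjusted p = 0.00552). Aurkb, Ccnb2 and Mcm3, which serve chromosome segregation, mitotic entry and the replicative helicase, fell by 0.70 ± 0.12, 0.64 ± 0.13 and 0.54 ± 0.12 (adjusted p = 0.0114, 0.0227 and 0.0308). Aurkb was not called without DMSO 3 (adjusted p = 0.0521), and Ccnb2 was not called without Torin1 1, DMSO 2 or DMSO 3 (up to 0.0882). Among the leave-outs, Mcm3 was called only in that of DMSO 2 and lost its call in all others (limma adjusted p up to 0.0922). Mki67, the proliferation marker, read 8.54, 8.60 and 7.85 with Torin1 and 8.49, 8.59 and 8.70 with DMSO, which overlapped (change -0.26 ± 0.20, adjusted p = 0.527). The oocyte, arrested in meiosis, also holds mitotic transcripts, and its share of these values was not tested.

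**Figure D4:**
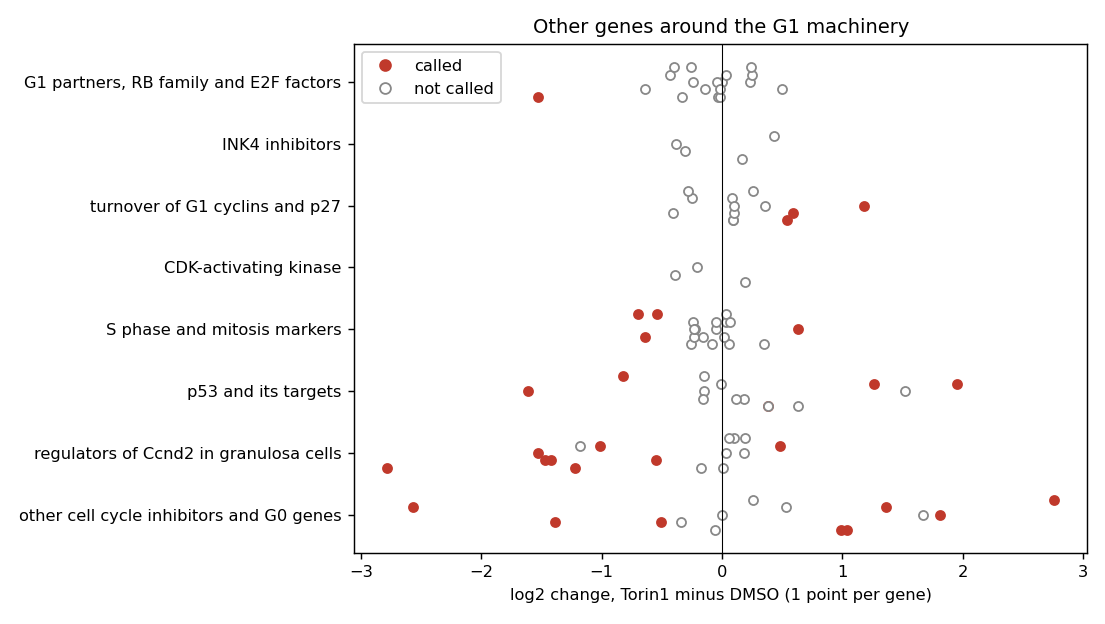
Change of each measured gene (log2, Torin1 minus DMSO, 1 point per gene) in the 8 lists of genes around the G1 machinery; filled points were called. The RB and E2F list holds 1 called gene of 18 and the INK4 list 0 of 4, where 12.1% of all genes were called, and the regulators of Ccnd2 hold 7 called falls.

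Of 16 genes that act upstream of Ccnd2 in granulosa cells, 7 fell, 1 rose and 8 were not called (50% called, beside 12.1% of all genes; median -0.36). The list was not divided into genes that raise and genes that lower Ccnd2, so these counts do not show an effect on it. Fshr, the follicle-stimulating hormone receptor gene, read 5.27, 4.92 and 6.60 with Torin1 and 8.64, 8.25 and 8.22 with DMSO (change -2.78 ± 0.40, adjusted p = 0.00575). Torin1 sample 3 was the highest of its group, as for Ccnd2. Esr2, the estrogen receptor of granulosa cells, Foxl2, a transcription factor that maintains them, and Irs1, an insulin receptor substrate, fell by 1.53 ± 0.13, 1.47 ± 0.12 and 1.42 ± 0.15. For these 3 genes Torin1 sample 3 did not stand above both other Torin1 samples. Smad3, a transducer of activin signals, rose by 0.48 ± 0.11 (adjusted p = 0.0333) but leaving out any array except Torin1 1 ended that call (adjusted p up to 0.101). Nr5a2, a nuclear receptor gene named after its values were seen, fell by 1.22 ± 0.24 (adjusted p = 0.0203), with 7.36, 7.34 and 8.28 in Torin1 samples and 8.86, 8.80 and 8.96 in DMSO samples. Leaving out any array but Torin1 3 ended that call (adjusted p up to 0.0806). Foxo1 and Esr1, also named after their values were seen, fell by 1.01 ± 0.10 and 0.55 ± 0.11 (limma adjusted p = 0.00109 and 0.0198). Foxo1 was called in all 6 leave-outs, and Esr1 was not called without DMSO 1 or DMSO 3 (limma adjusted p up to 0.0731).

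The pattern of Ccnd2 over the arrays was compared with that of 11089 other genes brighter than the median gene, by the mean absolute difference of log2 values after each gene's own mean was subtracted. The 5 nearest genes were Dstn (0.0473), which encodes an actin-depolymerizing protein, Dock9 (0.0521), an exchange factor gene for CDC42, Zfp41 (0.0914), a zinc finger gene, Rasl11b (0.102), a Ras-like GTPase gene, and Aldh2 (0.111), a mitochondrial aldehyde dehydrogenase gene. In all 5, Torin1 sample 3 lay between the other Torin1 samples and the DMSO samples. This follows from their choice by likeness to Ccnd2 on these same arrays and is no separate result. Dstn read 7.39, 7.37 and 8.35 with Torin1 and 8.58, 8.61 and 8.66 with DMSO. Of the other members, Cdkn1c (0.377), Cdk6 (0.386) and Cdk4 (0.394) were nearest to Ccnd2 and Cdkn1a (0.819) was farthest. These distances describe 6 arrays and carry no test.

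**Figure D5:**
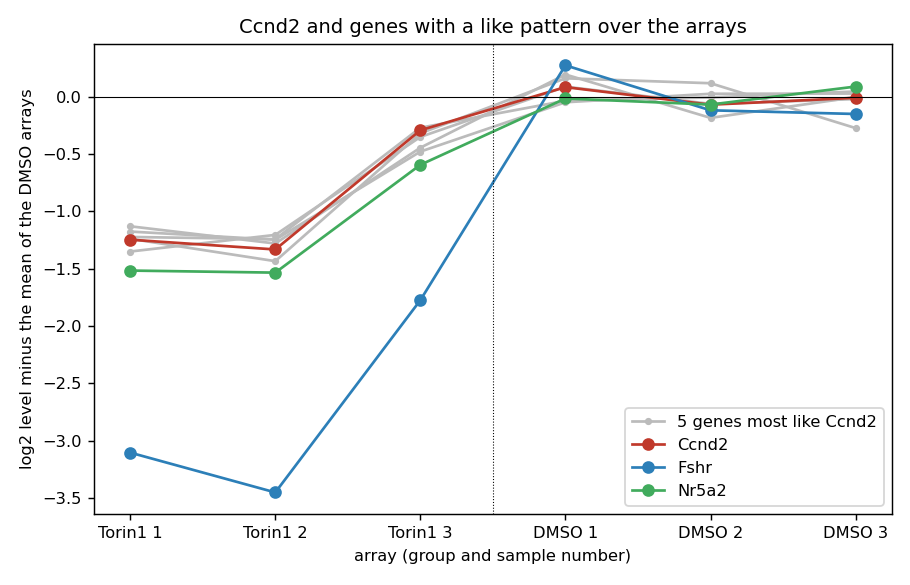
Log2 level minus the mean of the DMSO arrays, for each array, of Ccnd2, Fshr, Nr5a2 and the 5 genes most like Ccnd2 (grey). In Torin1 sample 3 Ccnd2 lies 0.29 below the DMSO mean, and in Torin1 samples 1 and 2 it lies 1.25 and 1.33 below it.

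Other genes that restrain the cell cycle or mark quiescence changed in both directions, with 5 rises and 3 falls among 14 measured genes (57.1% called, beside 12.1% of all genes; median 0.39). Klf4, Cebpa and Cebpb, transcription factor genes linked to cell cycle exit, rose by 2.76 ± 0.24, 1.81 ± 0.12 and 1.36 ± 0.12 (adjusted p = 0.00069, 0.000308 and 0.000787). Klf6 rose by 1.04 ± 0.23 (adjusted p = 0.0275) and lost its call without any 1 of the DMSO arrays (adjusted p up to 0.0956). Btg1, an antiproliferative gene and the fifth rise, named after its values were seen, rose by 0.99 ± 0.12. Cables1, whose product links CDKs to tyrosine kinases, fell by 2.57 ± 0.18, Gas6 by 1.39 ± 0.14 and Tob1 by 0.51 ± 0.08 (adjusted p = 0.000341, 0.00139 and 0.01). Cebpa and Cebpb are also known in granulosa cells as genes of the ovulatory response, so the list is not specific to the cell cycle.

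Cumulus and granulosa markers moved with the same contrast. Called shares were 81.8% for these, 15.4% for oocyte, 22.2% for theca and stroma, 12.5% for immune and 16.7% for endothelial markers. Of all genes 12.1% were called. The cumulus, granulosa and oocyte markers were all brighter than the median gene, and among such genes the called share was larger. Of 11 cumulus and granulosa markers, 4 of which are also among the genes upstream of Ccnd2, 9 fell and 0 rose (median -1.47; 9 lower and 0 higher at an unadjusted limma p below 0.05), and their summed intensity was 2090 to 2480 in Torin1 samples and 4620 to 4830 in DMSO samples. Of 13 oocyte markers 2 rose and 0 fell (median 0.23; 8 higher and 0 lower at an unadjusted limma p below 0.05), with sums of 5820 to 6350 in Torin1 samples and 5210 to 5580 in DMSO samples. Of 9 theca and stroma markers 2 fell and 0 rose (median -0.02; 3 lower and 0 higher at an unadjusted limma p below 0.05), with sums of 164 to 177 in Torin1 samples and 444 to 516 in DMSO samples. Most of that gap was Acta2, a smooth muscle actin gene, which fell by 2.87 ± 0.12 (adjusted p = 5.3e-05); the other 8 summed to 115 to 132 with Torin1 and 141 to 147 with DMSO. Of 8 immune markers 1 rose and 0 fell (median 0.08; 1 higher and 0 lower at an unadjusted limma p below 0.05), and the sums were 92.6 to 100 with Torin1 and 81 to 86.7 with DMSO. Of 6 endothelial markers 1 rose and 0 fell (median 0.13; 2 higher and 0 lower at an unadjusted limma p below 0.05), with sums of 147 to 268 in Torin1 samples and 101 to 107 in DMSO samples. The rise was that of Cdh5, a cadherin gene (2.33 ± 0.37, adjusted p = 0.00835), and the other 5 summed to 89.9 to 120 with Torin1 and 84.9 to 90.6 with DMSO. In these 3 lists 4, 1 and 3 markers were brighter than the median gene, and no intensity on these arrays was 0. None of the 5 erythroid markers had a probe set naming it alone. The part of such shifts in the changes of Ccnd2, Cdk4, Cdk6 and Cdkn1a was not tested.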

How the data were processed

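Intensities were deposited as 1 value per probe set and array on a linear scale. Per the submitters' processing notes the authors used GCOS, Affymetrix Expression Console 1.1 and RMA, which corrects background, quantile-normalizes and summarises by median polish; the sources used here give neither the settings nor the probe sets' build. Quantile normalization sets the arrays to 1 distribution before summarising, so changes are relative. The summarised values still differed slightly between arrays, as their medians show. Of 41345 probe sets, 23521 named 1 gene, 1814 named several and 16010 were unnamed here; the brightest per gene gave 22180 genes. Symbols of 23328 matched RefSeq, and 0 changed.

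Here log2(intensity + 1) was fitted with limma 3.58.1 in R 4.3.3 (lmFit, eBayes; no covariate, no filter), where the design named this for linear values. The addition understates changes of dim genes. The fit was tested on simulated data. The number of arrays, 3 per group, limits the precision; the smallest p of an exact permutation test at this size is 0.1. Alternatives were pseudocounts of 0 and 16, a filter on dim genes, mean probe sets, array centring, quantile normalization, trend with robust eBayes, array weights, a replicate block, averaging of Torin1 samples 2 and 3, and leaving out each array.

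Members and lists were chosen with earlier results of these data known. Named are all members, up to 4 called genes of each list with the largest change in each direction, and the 5 genes most like Ccnd2. Cdk2, Rb1, Skp2, Myc, Mki67, Nr5a2, Foxo1, Esr1, Btg1, Acta2, Cdh5 and the INK4 genes were added after their values were seen, as was the search for motifs. Promoter windows are RefSeq's.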

Additional observations from a re-analysis of the deposited data

How the results depend on the processing

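Cdk6 and Cdkn1a were called, in the same direction, under all 16 alternatives (changes of -1.53 to -1.01 and 0.64 to 0.71). Cdk4 kept its direction throughout (-0.46 to -0.35) and was called in 11 of 16. Ccnd2 kept its direction (-1.29 to -0.77) and was called in 5 of 16, among them those that left out, weighted down or averaged Torin1 3. Ccnd1, near 0, turned positive when arrays were centred on the median gene (0.01) and without Torin1 2 (0.05; -0.07 to 0.05 over the leave-outs); it was called under none of 15 alternatives, nor were Ccnd3, Ccne1, Cdkn1b and Cdkn1c under any of 16 (lowest adjusted p = 0.0695 by limma). Of all genes, 2678 were called, and 1518 to 3083 with 1 array left out, the fewest without DMSO 3 and the most without Torin1 3; DMSO 1 and DMSO 2 also lowered the count by over 1.5 times (1730 and 1763). Members called lower numbered 1 to 3 in these leave-outs, with 1 without Torin1 1, Torin1 2, DMSO 1 or DMSO 2. Counts of called genes in the leave-outs ran from 0 to 1 for INK4 inhibitors, 0 to 4 for turnover genes (1 without DMSO 2 and 0 without DMSO 3), 1 to 3 for S phase and mitosis markers (1 without DMSO 3, 2 without Torin1 1), 3 to 4 for p53 genes (3 without DMSO 1, DMSO 2 or DMSO 3) and 5 to 8 for regulators of Ccnd2 (5 without DMSO 1 or DMSO 3). With a pseudocount of 16, 2 RB and E2F genes were called, and with Torin1 2 and 3 averaged, 1 of the CDK-activating kinase. The cause of these moves was not tested, beyond the smaller number of arrays in the leave-outs.

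Samples share replicate numbers. The deviations of same-numbered samples from their group means correlated at -0.21, -0.30 and -0.15, which gives no sign of pairing by number. Those of differently numbered samples correlated at -0.12 to 0.31. Torin1 1 with DMSO 2 gave 0.31, Torin1 2 with DMSO 3 gave 0.30 and Torin1 3 with DMSO 1 gave 0.11. The remaining pairs gave -0.12, 0.03 and 0.018. Pairing in an order other than the sample numbers was not fitted. Whether samples of the 2 groups share animals or cultures cannot be told from these values. With the replicate number as a block, 1565 genes were called, 1 member lower (Cdk6; Cdk4 at -0.42, adjusted p = 0.0964), 1 turnover gene and 2 S phase and mitosis markers. Background, which could limit dim genes such as Ccnd1, was not measured here.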
